A study of Mus musculus with 2 samples.

Results

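The cells described here are early B cells of mouse bone marrow that carry transcripts of the surrogate light chain. They were chosen by their own unique molecular identifiers (UMIs, each counting 1 captured transcript): at least 3 UMIs of Vpreb1 and Igll1 together and at least 1 UMI of Ebf1, among barcodes with 200 to 9000 detected genes, at most 30% mitochondrial UMIs and at least 1000 UMIs. The control (Ctrl) library held 174 such cells among 8795 kept barcodes and the Map4k4-cKO (cKO) library held 1 among 5347, so that 175 of 14142 cells were chosen in all. Vpreb1, Igll1 and Ebf1 made the choice, and their levels are given as a description of the cells.

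The study asked what the kinase MAP4K4 does in neutrophil development and prepared 1 droplet-based 3′ single-cell RNA library from Ctrl and 1 from cKO mice. The cKO mice carried Mx1-Cre with floxed alleles of Map4k4 (Map4k4 f/f) and had received poly I:C, while the labels give the other library only as control and the methods write that genotype as Mx1-Cre Map4k4-/-. The mice were on the C57BL/6 background and 13 to 14 weeks old, and each library was a mixture of 2 parts of c-Kit+ cells and 3 parts of whole marrow after red cell lysis, so shares of cells in it are not shares of marrow. Mx1-Cre is switched on by interferon and recombines in every cell type that responds to it, B lineage cells among them. The number of mice behind a library is not given in the sources used here. There was 1 library per condition, hence no replicate check and no test, and all intervals are exact 95% intervals that cover counting error only.

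The surrogate light chain is made of VPREB and IGLL1 (lambda 5), which pair with a newly made immunoglobulin heavy chain before any light chain gene has been rearranged. Together with CD79A and CD79B they form the pre-B cell receptor, whose signal lets a cell with a working heavy chain divide before it turns to its light chain genes. Pro-B cells join heavy chain segments with RAG1, RAG2 and the terminal transferase DNTT, large pre-B cells divide, and small pre-B cells rearrange the light chain. EBF1, PAX5 and the E protein TCF3 (E2A) are the transcription factors best known for holding this programme in place.

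The genes of the surrogate light chain lie close together. In GRCm38, Vpreb1 (ENSMUSG00000059305) spans chr16:16868403-16870843 on the minus strand and Igll1 (ENSMUSG00000075370) spans chr16:16860671-16863985 on the same strand, 4418 bases away. Vpreb2 (ENSMUSG00000059280) lies on the plus strand at chr16:17980428-17981273, and Vpreb3 (ENSMUSG00000000903), a relative that stays inside the cell, is on another chromosome at chr10:75943057-75949657. The 250 bases before the RefSeq start of Vpreb1, Igll1 and Vpreb2 are shown because EBF1 and E proteins are the regulators best known for them (RefSeq, GRCm38.p6, 5′ to 3′ on the gene's strand). Capitals mark CAGGTG, the E-box of E proteins, read on both strands so that CACCTG counts too, and CCCNNGGG, the core of the EBF site, which reads the same on both strands. The windows are chr16:16869256-16869505 (minus) for Vpreb1, chr16:16863986-16864235 (minus) for Igll1 and chr16:17980315-17980564 (plus) for Vpreb2. The gene spans above are from GENCODE, whose starts differ from RefSeq for Vpreb1 and Vpreb2. The Vpreb1 window thus lies inside its span and the Vpreb2 window runs into its span. Distances to a start below are to the RefSeq start.
Vpreb1: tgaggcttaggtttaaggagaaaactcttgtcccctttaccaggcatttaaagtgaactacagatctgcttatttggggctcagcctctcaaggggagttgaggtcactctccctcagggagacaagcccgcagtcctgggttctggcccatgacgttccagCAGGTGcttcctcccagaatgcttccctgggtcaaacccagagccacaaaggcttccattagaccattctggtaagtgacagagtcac
Igll1: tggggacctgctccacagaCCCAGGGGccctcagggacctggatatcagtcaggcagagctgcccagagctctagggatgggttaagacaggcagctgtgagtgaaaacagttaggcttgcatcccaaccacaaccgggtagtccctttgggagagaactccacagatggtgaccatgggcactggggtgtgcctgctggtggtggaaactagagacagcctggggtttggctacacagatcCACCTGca
Vpreb2: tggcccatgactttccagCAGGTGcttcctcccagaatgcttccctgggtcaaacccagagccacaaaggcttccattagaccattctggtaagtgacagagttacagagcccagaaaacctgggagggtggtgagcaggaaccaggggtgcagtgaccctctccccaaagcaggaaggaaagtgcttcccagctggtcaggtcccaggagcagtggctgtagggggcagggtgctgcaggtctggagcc

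Vpreb1 had 1 E-box, 88 bases before its start, Igll1 had 1 E-box 8 bases before its start and 1 EBF core 231 bases before it, and Vpreb2 had 1 E-box 232 bases before its start. Of 32851 such windows over all genes, 17.2% held the E-box and 11.8% held the EBF core, so these letters are common and a match is a description of the sequence, not a bound site. Over the full RefSeq windows of 300 bases, which run on past the start from the letters shown, Vpreb1 and Vpreb2 could be aligned over 156 bases with 153 identical (98.1%), and the longest transcripts of these genes were 97.8% identical over 686 aligned bases, with 87 gaps. Reads that match both genes are not counted for either, so the UMIs of each can be too few and the split between Vpreb1 and Vpreb2 is uncertain.

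As deposited, Ctrl counted 71527701 UMIs over 10220 barcodes and cKO counted 64393950 over 6872. The limits on genes and mitochondrial share given in the methods left 9965 and 6718 barcodes. The floor of 1000 UMIs then left the 8795 and 5347 kept barcodes, with a median of 4940 UMIs in Ctrl and 8783 in cKO. The 174 Ctrl cells summed to 1440054 UMIs, with 1014 UMIs in the smallest cell, a median of 4937 and 40619 in the largest, and had a median of 2146 detected genes. As barcodes, 3010 strings were present in both libraries, which is 29.5% of those of Ctrl and 43.8% of those of cKO. Of the 174 cells, 57 carried a shared string, and 0 of the cKO barcodes with these strings held a UMI of Vpreb1, Igll1 or Ebf1. Leaving the shared strings out gave 117 of 5920 cells in Ctrl (1.98%) and 1 of 2608 in cKO (0.0383%).

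Map4k4, the targeted gene (ENSMUSG00000026074, chr1:39900913-40026310, plus strand), did not separate the libraries. It had 5092 UMIs in kept Ctrl cells, or 72.3 per 1000000 UMIs (CPM, 70.3 to 74.3), and 4047 in kept cKO cells, or 64.0 CPM (62.0 to 66.0). Scaled to CPM the log2 ratio of cKO over Ctrl was -0.18 (-0.24 to -0.12), and with median-of-ratios scaling it was 0.32, so its direction depended on the scaling. A 3′ count per gene can include transcripts that lack the deleted exons and so does not check the labels. Ctrl and cKO below therefore mean the libraries labelled that way. In the 174 cells Map4k4 stood at 161 CPM (141 to 183), against 70.4 CPM in the other kept Ctrl cells and 89.3 CPM in Cd79+ cells without surrogate light chain, and was detected in 61.5% of cells.

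The cut that chose the cells lay within a range. Summed Vpreb1 and Igll1 UMIs per cell ran from 3 to 68 with a median of 20.5, and 54 of the 174 cells had 30 or more, 85 had 10 to 29 and 22 had 5 to 9. Just inside the cut, 6 cells had 3 UMIs, of which 5 held Vpreb3 and 4 held Cd79a, with Vpreb3 at 1115 CPM. Just outside, 16 cells with Ebf1 had 2 UMIs, of which 15 held Vpreb3, 13 Cd79a and 11 Pax5, with Vpreb3 at 798 CPM. Cells on both sides of the cut thus carried other B lineage genes. Another 376 Ctrl cells had a lone Vpreb1 or Igll1 UMI and no Ebf1, with a median of 9688.5 UMIs and Vpreb3 at 4.12 CPM, and only 5 Ctrl cells had 3 or more without Ebf1. Neutrophils, which should lack these genes, served as the background. Free RNA and cells captured together cannot be told apart there, and no doublet caller was run. Of 2907 kept Ctrl cells with at least 5 UMIs of the neutrophil gene Retnlg (median 3270 UMIs), 4.95% held 1 or more Vpreb1 or Igll1 UMIs and 21 held 3 or more, of which 20 also held Ebf1 and are among the 174.

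For comparison, other cells of the Ctrl library were taken by equally simple rules. They are 580 Cd79+ cells (Cd79a and Cd79b together at 3 UMIs or more), 95 Siglech+ cells (3 UMIs or more of this plasmacytoid dendritic marker), 167 Flt3+Cd34+ cells (at least 1 UMI of each gene and none of Cd79a, Cd79b or Siglech) and 2763 Retnlg-high cells (5 UMIs or more), all with Vpreb1 and Igll1 at 0. Retnlg-high cells overlapped Cd79+ cells in 44 barcodes. The Cd79+ cells are a mixed class that rests on 2 genes. Of them 57.1% held Pax5 and 54.8% Vpreb3, and neutrophil granule genes of myeloid precursors were abundant, with Mpo at 3442 CPM and Elane at 3055 CPM against 467 and 374 CPM in the early B cells. A narrower set of 439 Cd79+ cells with at least 1 UMI of Pax5 or Vpreb3, in which Mpo stood at 879 CPM, was therefore compared as well.

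**Figure D1:**
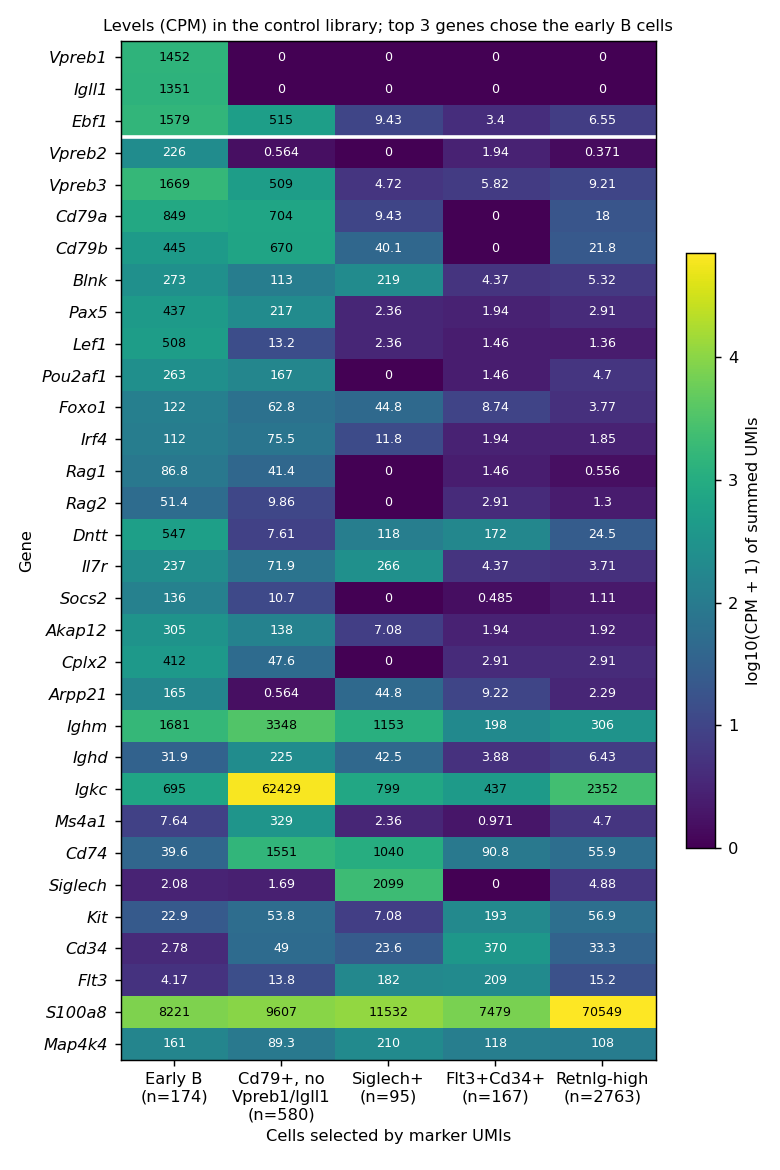
Levels of selected genes in the Ctrl library, as CPM of UMIs summed over the cells of each column (printed number, colour on a log10(CPM + 1) scale), for the 174 early B cells and 4 comparison classes of 580, 95, 167 and 2763 cells. Vpreb1, Igll1 and Ebf1 above the white line chose the cells, and below it Vpreb3, Lef1, Rag2, Dntt, Socs2, Cplx2 and Arpp21 are highest in the early B column among the 5, while Ms4a1, Cd74 and Igkc are highest in the Cd79+ column.

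Surrogate light chain transcripts of the library lay mostly in these cells, for Vpreb1 and Igll1 by the rule. Vpreb1 stood at 1452 CPM (1390 to 1516) and Igll1 at 1351 CPM, and 170 of the 174 cells held both, while 3 held Vpreb1 alone and 1 held Igll1 alone. Of all kept Ctrl UMIs of each gene, 88.5% of Vpreb1, 89.5% of Igll1 and 88.8% of Vpreb2 lay in these 174 cells. Vpreb2 is not independent of the choice, since it shares most of its sequence with Vpreb1 and all 116 cells with it also held Vpreb1. It was at 226 CPM against 0.564 CPM in Cd79+ cells. Vpreb3 ranged from 0 to 50 UMIs per cell with a median of 13, was detected in 97.1% of the cells and stood at 1669 CPM (1603 to 1737). Cd79+ cells had 509 CPM of Vpreb3, and Siglech+, Flt3+Cd34+ and Retnlg-high cells had 4.72, 5.82 and 9.21 CPM, so 49.7% of kept Vpreb3 UMIs lay in the early B cells.

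Against all other kept Ctrl cells, 15.2% of 14763 genes with at least 10 UMIs were 2-fold or more higher in the early B cells and 24.7% were 2-fold or more lower, with a median log2 ratio of 0.14. Another scaling, by the median of ratios, moved all log2 ratios of this comparison by -0.32. The 20 genes with the highest ratio among those at 100 CPM or more were led by Igll1 (log2 ratio 8.68), Vpreb2 (8.57) and Vpreb1 (8.52). Next came Lef1, a high-mobility-group transcription factor of early lymphocytes, at 7.73 (7.48 to 7.98), followed by Bfsp2 at 6.53, Arpp21 at 6.43 and Cplx2 at 6.40. The STAT5 target Socs2 (6.14), Vpreb3 (5.56), Ebf1 (5.49), Id3 (5.21), Pax5 (4.96), Akap12 (4.96), Dntt (4.90), Chst3 (4.80), Blnk (4.66), Slamf6 (4.61), Arntl (4.58), Pou2af1 (4.47) and Snn (4.44) complete the set. Most Lef1 transcripts of the library came from this class, since its 731 UMIs in 174 cells made up 81.6% of its kept Ctrl UMIs. Arpp21, Cplx2 and Socs2 had 64.2%, 63.9% and 59.6% of theirs there.

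Akap12, a scaffold protein for kinases that was given as a marker of these cells, was detected in 71.3% of them at 305 CPM (277 to 335). It was also present in Cd79+ cells at 138 CPM, in 28.8% of them, and at 1.92 CPM in Retnlg-high cells. The list of other early B genes to which it belongs had 14 of 14 members 2-fold or more higher than in all other kept cells, with a median log2 ratio of 3.70. Of all genes 15.2% were higher there. Chchd10, a mitochondrial protein gene, stood at 852 CPM against 48.4, Tifa, an adaptor of NF-kappaB signalling, at 231 CPM against 25.6, and Mzb1, an endoplasmic reticulum protein of B cells, at 346 CPM against 19.2.

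Pre-B cell receptor genes were present from the receptor to the adaptors. Against all other kept cells 11 of 21 genes of this list were 2-fold or more higher and 0 lower, with a median log2 ratio of 1.06. Of all genes 15.2% were higher and 24.7% lower there. Cd79a, which carries the signal of the receptor into the cell, was detected in 95.4% of the cells at 849 CPM (802 to 898), against 44.6 CPM in the other kept cells. Its partner Cd79b was at 445 CPM in 86.8% of cells. Blnk, the adaptor that couples the kinase SYK to calcium signalling, was at 273 CPM against 113 in Cd79+ cells and 219 in Siglech+ cells. Syk itself (178 against 122 CPM), Btk (92.4 against 61.7), Plcg2 (123 against 91.5) and Lyn (106 against 107), which other blood cells use as well, all lay within 2-fold of the other kept cells. The heavy chain gene Ighm was detected in 97.7% of the cells at 1681 CPM (1615 to 1750), against 306 CPM and 33.0% of the Retnlg-high cells.

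Among 22 B lineage transcription factors, 16 were 2-fold or more higher than in all other kept cells and Spi1 (PU.1), which also drives myeloid cells, was 2-fold or more lower, with a median log2 ratio of 2.44. Ebf1 is among the 16 by the rule. Of the other 21 factors 15 were higher, with a median of 2.36, beside 15.2% of all genes higher and 24.7% lower. Pax5, the factor that commits cells to the B lineage, had 0 to 22 UMIs per cell with a median of 2.5 and stood at 437 CPM (403 to 472), detected in 85.1% of cells against 1.19% of Retnlg-high cells. Tcf3 was at 417 CPM against 72.2 CPM, Bach2 at 255 against 14.9, Foxo1, which activates the Rag genes, at 122 against 7.78, and Irf4 at 112 against 6.78 CPM. Myb and Sox4, which stem and progenitor cells share, were at 600 and 469 CPM. Irf8 was level with the other kept cells, at 176 CPM in each.

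Of 15 genes of V(D)J recombination, 8 were 2-fold or more higher than in all other kept cells and 0 lower, with a median log2 ratio of 1.05. The shares of all genes there were 15.2% higher and 24.7% lower. Dntt, which adds bases at the joints, was at 547 CPM (509 to 586) and in 70.1% of cells, against 24.5 CPM and 1.99% of Retnlg-high cells. It was also present in Flt3+Cd34+ cells (172 CPM, 32.3% of cells) and Siglech+ cells (118 CPM, 33.7%). Rag1 (chr2:101638282-101649501, minus) was at 86.8 CPM (72.2 to 103) against 2.78 CPM, and its neighbour Rag2 (chr2:101624718-101632529, plus) at 51.4 CPM against 1.39. Rag1 ran from 0 to 10 UMIs per cell and was detected in 36.2% of the early B cells, against 0.253% of Retnlg-high cells. The other 5 of the 8 serve DNA repair or chromatin in all cells: the ligase gene Lig4 (log2 ratio 3.32), the Ku subunits Xrcc6 (2.21) and Xrcc5 (1.16), the chromatin protein gene Hmgb1 (1.79) and the kinase gene Atm (1.05). Prkdc at 27.8 against 24.1 CPM and Xrcc4 at 9.03 against 9.84 CPM lay within 2-fold.

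The receptor for interleukin-7, the main growth factor of mouse pro-B cells, was present. Il7r was at 237 CPM (212 to 263), in 62.6% of cells, against 11.0 CPM in all other kept cells and 266 CPM in Siglech+ cells. Of 12 genes of the list, 3 were 2-fold or more higher (Il7r and the feedback inhibitors Socs2 and Cish) and 1 lower (Socs3, 1 UMI), with a median log2 ratio of 0.22, beside 15.2% of all genes higher and 24.7% lower, so the count says little about the list as a whole. Jak1 (133 against 131 CPM), Stat5a (23.6 against 26.2) and Myc (81.2 in each) did not stand apart. Of the BCL2 family, 1 of 12 genes was 2-fold or more higher (Bcl2l1, 27.1 against 12.0 CPM) and 4 were lower, with a median of -0.16. Beside the 15.2% and 24.7% of all genes, the lower side was near that share and the higher side, with 1 gene, below it. Bcl2 itself was at 17.4 CPM against 41.9 in the other kept cells and 65.9 in Cd79+ cells.

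Of 16 surface genes that flow cytometry uses to stage B cells, 8 were 2-fold or more higher than in all other kept cells and 4 lower, with a median of 0.77, beside 15.2% and 24.7% of all genes, so the lower side was level with the background. Cd24a was at 1031 CPM against 449, Cd93 at 257 against 78.8, Bst1 (BP-3) at 71.5 against 18.5 and Enpep (BP-1) at 30.6 against 0.261 CPM. Kit, the receptor used to enrich the progenitors of these libraries, was at 22.9 CPM (15.8 to 32.2) and in 13.2% of the cells, against 78.6 CPM in the other kept cells and 193 CPM in Flt3+Cd34+ cells. Flt3 at 4.17 CPM, Cd34 at 2.78 CPM and Il2ra, the CD25 chain of small pre-B cells, at 6.25 CPM were near the lower end of the measured range. Even so, Il2ra was among the 8 genes higher than in all other kept cells, and Flt3 among the 4 lower.

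Compared with the 580 Cd79+ cells, 7.74% of 11247 genes were 2-fold or more higher in the early B cells and 10.6% were 2-fold or more lower, with a median log2 ratio of 0.14 and a shift of -0.22 under median-of-ratios scaling. Immunoglobulin UMIs weigh on this comparison, since 57 of the Cd79+ cells had 5% or more of their UMIs from immunoglobulin constant genes and Jchain. Without those, 523 cells remained, and 5.45% of 11037 genes were 2-fold or more higher and 11.5% lower in the early B cells. Against the 439 cells with Pax5 or Vpreb3, 9.79% of 10603 genes were higher and 9.06% lower, but Pax5 and Vpreb3 chose those cells, so their ratios there are set by that choice. Of 5 genes with the highest ratios, Vpreb1 and Igll1 are there by the rule, and Vpreb2 (8.65), Arpp21 and Dntt follow. Arpp21, a phosphoprotein gene, had 237 UMIs in the early B cells against 2 in the Cd79+ cells, a log2 ratio of 8.19 (6.32 to 11.24). Dntt had 787 UMIs against 27, or 6.17 (5.61 to 6.78), 5.92 without the cells rich in immunoglobulin and 6.71 against the 439 cells. Arpp21 had 0 UMIs in the 439 cells.

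How many genes of the early stage lists stood above the Cd79+ cells depended on which of these were taken. Against the 580, 523 and 439 cells, 7.74%, 5.45% and 9.79% of all genes were higher and 10.6%, 11.5% and 9.06% lower. Of the other early B genes 7 of 14 were 2-fold or more higher and 0 lower, both against all 580 and against the 523, while 4 were higher (Arpp21, Cnn3, Cplx2 and Nrgn) and 2 lower (Fam129c and Siglecg) against the 439. Of the V(D)J genes 6 of 15 were higher (Rag1, Rag2, Dntt, Xrcc6, Lig4 and Hmgb1) and 1 lower (Polm), and 4 were higher against the 523 and against the 439 cells. Rag2 was at 51.4 against 9.86 CPM, a log2 ratio of 2.38 (1.78 to 3.01), and 1.76 against the 439 cells. Rag1 was at 86.8 against 41.4 CPM, or 1.07 (0.71 to 1.42), but 0.76 against the 523 cells and 0.18 (-0.18 to 0.53) against the 439, so its 2-fold difference rested on the comparison cells chosen.

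Of the transcription factors 7 of 22 were higher and 3 lower, beside 7.74% and 10.6% of all genes. The higher ones were Ebf1 by the rule, Pax5, Tcf3, Lef1, Sox4, Erg and Id3, and the lower ones Ikzf3, Pou2f2 and Spi1. Against the 523 cells 4 were higher and 4 lower, beside 5.45% and 11.5% of all genes. Against the 439 cells only Lef1 and Erg were higher and 3 were lower, beside 9.79% and 9.06% of all genes, so the higher side was near that share. Lef1 was at 508 against 13.2 CPM, or 5.26 (4.83 to 5.72), and gave 4.46 (4.02 to 4.94) against the 439 cells. Erg was at 190 against 19.7 CPM, or 3.26 (2.88 to 3.66), and gave 4.04 (3.42 to 4.74). Akap12 gave 1.15 (0.96 to 1.33), 0.85 and 0.28 against the 580, 523 and 439 cells. Il7r was at 237 against 71.9 CPM, or 1.72 (1.48 to 1.96), and 0.84 against the 439 cells, while the STAT5 targets Socs2 and Cish gave 3.67 and 4.07, and 3.38 and 3.91. The median of the interleukin-7 list was 0.11.

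The calls of surface genes depended on the comparison cells too. Of 16, 3 were 2-fold or more higher than in the 580 Cd79+ cells (Cd24a, Bst1 and Enpep) and 6 lower (Kit, Flt3, Cd2, Cd38, Ly6d and Il2ra), with a median of 0.18, against 2 higher and 6 lower for the 523 cells. Against the 439 cells 2 were higher (Bst1 and Enpep) and 4 lower, with a median of -0.12, and Cd24a (0.62), Kit (-0.19) and Flt3 (-0.18) lay within 2-fold. Cd79a and Cd79b chose the comparison cells. Of the other pre-B cell receptor genes 3 of 19 were higher (Fyn, Blnk and Pik3cd) and 2 lower, Cd22 among them, with a median of 0.22. Over all genes 7.74% were higher and 10.6% lower, so only the lower side was near that share. The shares of all genes were 5.45% and 11.5% against the 523 cells and 9.79% and 9.06% against the 439. Of the 19 genes 2 were higher and 3 lower against the 523 cells, with a median of -0.06. Against the 439 cells 1 of the 19 was higher and 4 were lower, with a median of -0.36. The 4 myeloid granule genes Mpo, Elane, Prtn3 and Ctsg had ratios of -2.88, -3.03, -3.40 and -3.73 against the 580 cells and -0.91, -1.04, -1.57 and -1.60 against the 439, and the part of such RNA in the other ratios was not tested.

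Genes of mature B cells were mostly low. Against all other kept cells 10 of 17 late B genes were 2-fold or more lower and 4 higher (Ighd, Ccr7, Cxcr5 and Tnfrsf13c), with a median of -1.32. Over all genes 24.7% were lower and 15.2% higher there. Against Cd79+ cells 0 of the 17 were 2-fold or more higher and 14 were lower, beside 7.74% and 10.6% of all genes. The median of the 17 was -2.81. The counts were the same against the 523 cells, with a median of -3.11. Against the 439 cells 15 were lower, with a median of -3.45. Ms4a1 (CD20) was at 7.64 CPM (3.81 to 13.7) in the early B cells and 329 CPM in the Cd79+ cells, a log2 ratio of -5.43 (-6.44 to -4.59). Cd74, the chaperone of MHC class II, was at 39.6 against 1551 CPM, and H2-Aa, H2-Ab1 and H2-Eb1 of that complex were at 29.9, 61.8 and 10.4 CPM against 579, 376 and 367. The chemokine receptor gene Cxcr5 was an exception, at 20.8 against 21.1 CPM.

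**Figure D2:**
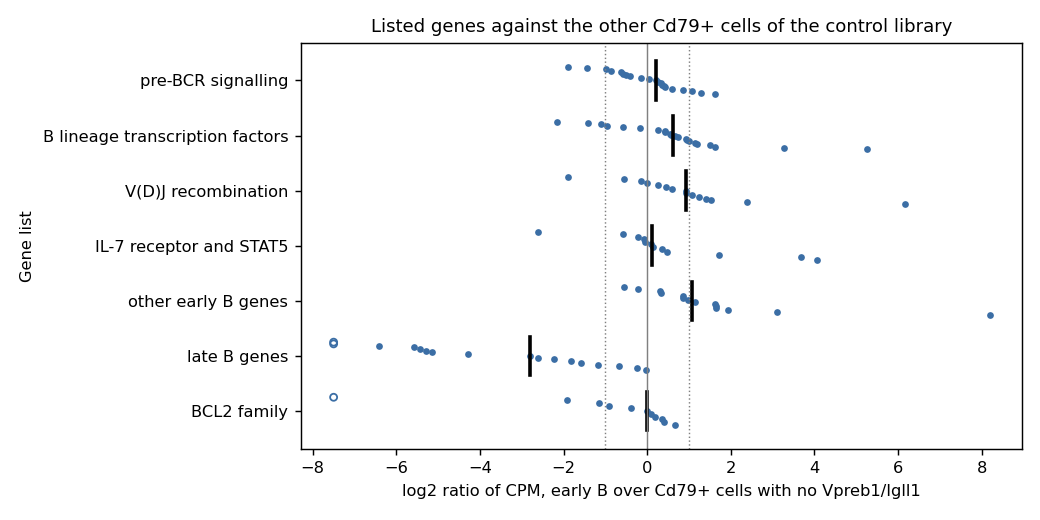
Each point is 1 gene of the list on the y axis, placed at the log2 ratio of its CPM in the 174 early B cells over the 580 Cd79+ cells without Vpreb1 and Igll1 (x axis); black bars are list medians, dotted lines mark 2-fold and open circles at the left edge are genes with 0 UMIs in the early B cells. Late B genes have a median of -2.81 and none lies past 2-fold to the right, whereas other early B genes have a median of 1.06 and none lies past 2-fold to the left.

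Immunoglobulin constant genes were mostly lower than in all Cd79+ cells, by an amount that depended on the cells rich in immunoglobulin. Ighm was at 1681 against 3348 CPM in Cd79+ cells, a log2 ratio of -0.99 (-1.06 to -0.93), and -0.38 against the 523 cells. The light chain gene Igkc was at 695 CPM against 62429 CPM, or -6.49, and -2.01 against the 523 cells. Igkc stood at 2352 CPM in Retnlg-high, 799 CPM in Siglech+ and 437 CPM in Flt3+Cd34+ cells. Its level in the early B cells thus lay within the range of these other classes. Igha and Ighg2c, the constant genes of switched antibodies, gave -6.08 and -7.84 against all Cd79+ cells but -0.05 and -0.03 against the 523, and Jchain went from -6.93 to -0.31. The 523 cells were those with under 5% of UMIs from immunoglobulin constant genes and Jchain. Ratios of these genes against the 523 are therefore set in part by that choice. Of 11 constant genes compared, 0 were 2-fold or more higher and 10 lower in the comparison with all Cd79+ cells, and of 9 compared with the 523 cells 5 were lower. The shares of all genes lower in these comparisons were 10.6% and 11.5%. Heavy chain variable segments had 26 UMIs in 24 of the early B cells (13.8%), or 18.1 CPM (11.8 to 26.5), against 13.5 CPM (11.7 to 15.4) in 2.46% of Retnlg-high cells and 251 CPM in Cd79+ cells. Kappa variable segments had 11 UMIs in 10 of the early B cells (5.75%), or 7.64 CPM (3.81 to 13.7). Retnlg-high cells had a higher level, 25.1 CPM, but from 406 UMIs in 69 of 2763 cells, a smaller share of cells. Cd79+ cells were higher by both measures, at 557 CPM in 23.4% of cells. Flt3+Cd34+ cells were lower by both, at 0.971 CPM in 2 of 167 cells. Siglech+ cells had 7.08 CPM (1.46 to 20.7) in 2.11% of cells. A 3′ library reads little of a variable segment, so at this depth neither heavy chain nor kappa segments give the share of cells with a rearranged gene.

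Cell-cycle genes spread the cells over a wide range. The 97 S phase and G2/M genes used here took 0.182% of the UMIs in the lowest cell, a median of 1.67% and 5.37% in the highest. With a split at 1%, 96 cells (55.2%, 47.5 to 62.7) were cycle-high and 78 were cycle-low, and 7 cells lay between 0.8% and 1.25%. After every cell was thinned to 1000 UMIs the cycle-high share was 55.7%, against 22.4% of Cd79+ cells, 21.1% of Siglech+ cells, 15.9% of Retnlg-high cells and 55.1% of Flt3+Cd34+ cells. Against Cd79+ cells 10 of 43 S phase genes and 15 of 54 G2/M genes were 2-fold or more higher and 0 lower, beside 7.74% of all genes. Against the 523 cells these were 2 and 3, near the 5.45% of all genes, and against the 439 cells 13 and 8, beside 9.79%. Cycle-high cells were larger, with a median of 10016.5 UMIs against 3183 in cycle-low cells, and this difference in depth goes with each comparison between them.

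Dntt divided the cells in another way. It was detected in 122 cells (70.1%, 62.7 to 76.8), with 0 to 26 UMIs per cell and a median of 3, and in 43.7% after thinning to 1000 UMIs. The cells without it had a median of 7160 UMIs and those with it 4801.5. By both measures 64 cells (36.8%) were cycle-low with Dntt, 58 (33.3%) cycle-high with Dntt, 38 (21.8%) cycle-high without Dntt and 14 (8.05%) cycle-low without it. Their median depths were 3466.5, 8795, 11176.5 and 2318 UMIs in that order, so that cycle-low cells without Dntt were the shallowest. Of the cells with Dntt 47.5% (38.4 to 56.8) were cycle-high, and of those without 73.1% (59.0 to 84.4), and these shares were 48.4% and 73.1% after thinning.

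**Figure D3:**
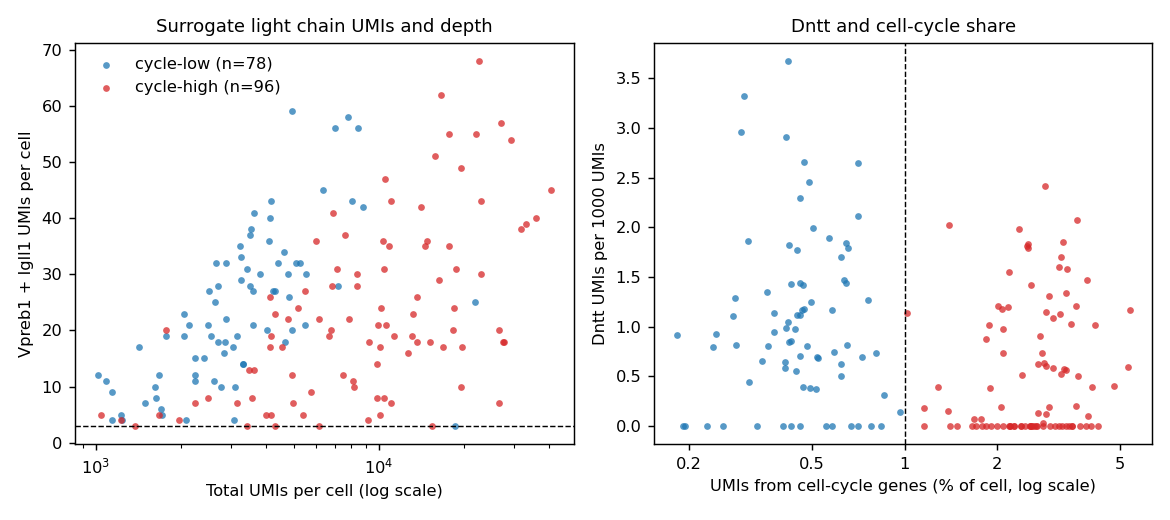
Each point is 1 of the 174 Ctrl early B cells, 78 cycle-low (blue) and 96 cycle-high (red). Left, summed Vpreb1 and Igll1 UMIs (y axis) against total UMIs (x axis, log scale) with the cut of 3 UMIs dashed; right, Dntt UMIs per 1000 UMIs (y axis) against the percent of UMIs from 97 cell-cycle genes (x axis, log scale) with the split at 1% dashed, where the row at 0 holds the 52 cells without Dntt, 38 of them cycle-high.

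Recombination genes were lower in cycle-high cells. Over the whole table of 9096 genes, 13.5% were 2-fold or more higher in cycle-high cells and 19.4% lower, with a median log2 ratio of -0.16 and a shift of 0.32 under median-of-ratios scaling. Rag1 was at 27.3 against 310 CPM, or -3.51 (-4.14 to -2.91), and Rag2 at 25.5 against 148 CPM, or -2.54 (-3.27 to -1.84). Of 14 V(D)J genes compared 8 were 2-fold or more lower and 3 higher, which were Xrcc5, Hmgb1 (2.02) and Hmgb2, the last itself one of the cell-cycle genes. Apart from Ebf1, 4 of 21 transcription factors (Foxo1, Lef1 at -1.47, Sox4 and Erg) were 2-fold or more lower, level with the 19.4% of all genes. Of the 21 only 1 was higher (Ikzf3, with 0 UMIs in the cycle-low cells), beside 13.5% of all genes. Pax5 (-0.09), Il7r (-0.18) and Ighm (0.06) had nearly equal CPM in both. Vpreb3 (-1.31) was lower too, as was Vpreb2 (-1.82), whose UMIs are tied to those of Vpreb1. For the genes that chose the cells, Vpreb1 (931 against 3405 CPM), Igll1 (1001 against 2662) and Ebf1 (1230 against 2887), CPM is a description alone. The rule asks for the same 3 UMIs in every cell and so for a larger fraction of a shallow one, and the median of summed Vpreb1 and Igll1 UMIs per cell was 20 in cycle-high and 21 in cycle-low cells. S100a8 and S100a9 took 1.38% of UMIs in cycle-high and 3.76% in cycle-low cells, and 7 of 12 neutrophil markers were 2-fold or more lower in cycle-high cells, or 1 of 12 without 23 cells that had over 5% of UMIs from S100a8 and S100a9 or 10 or more haemoglobin UMIs. The part of this RNA in the other ratios was not tested.

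Among the highest ratios in cycle-high cells, Pclaf (5.38), Nusap1 (5.37) and Aurkb (5.31) encode proteins of DNA replication and mitosis, and Nusap1 and Aurkb were part of the split. Myl4, a myosin light chain gene, was also among them at 5.24 (3.37 to 8.29), with 283 UMIs in cycle-high and 2 in cycle-low cells. The 5 lowest were Steap4 (-6.04), Cstdc4 (-4.57), Camk2b (-4.08), Selenom (-3.70) and Heyl (-3.62). Cstdc4 had 56 of its 88 UMIs in 1 cell and 75 in cells with over 5% of UMIs from S100a8 and S100a9. Without those 23 cells its ratio was 0.42, so its direction rested on those cells. Cd22, an inhibitory receptor of B cells, was at 44.9 CPM in cycle-high and 3.30 CPM in cycle-low cells (51 UMIs against 1), a log2 ratio of 3.77 (1.22 to 9.10).

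Cells with Dntt carried more Rag1 and Rag2 transcripts. Of 9096 genes 13.1% were 2-fold or more higher in cells with Dntt and 3.95% lower, with a median log2 ratio of 0.14. Rag1 was at 128 CPM with Dntt and 24.5 CPM without, or 2.39 (1.58 to 3.30), and Rag2 at 78.4 against 10.5 CPM, or 2.90 (1.71 to 4.40). Of 14 V(D)J genes 5 were 2-fold or more higher, Dntt among them by the split, and 2 lower (Xrcc5 and Polm). Beside Dntt itself, which is there by the split, the highest ratios were those of Arpp21 (3.63, 2.80 to 4.60), Ankrd33b (3.52), Frmd6 (3.33) and Erg (3.31, 2.61 to 4.11), the last a transcription factor of stem and early lymphoid cells. Apart from Ebf1, 5 of 21 transcription factors were 2-fold or more higher, which were Foxo1 (1.99), Lef1 (1.76), Sox4, Erg and Id3. Ikzf3 and Pou2f2 were lower, beside 13.1% of all genes higher and 3.95% lower. Vpreb3 gave 0.71, and as a description the genes that chose the cells gave 1.76 (Vpreb1), 1.42 (Igll1) and 1.08 (Ebf1), and Vpreb2 gave 1.83. Il7r (-0.17) and Pax5 (-0.18) were nearly equal.

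Cells without Dntt carried another set. Ikzf3 (Aiolos), a factor of later B stages, was at 103 CPM without Dntt and 6.92 CPM with it, a log2 ratio of -3.90 (-5.40 to -2.69). Nrgn (-3.52), Myl4 (-3.21), Fcrla (-3.08), an Fc receptor-like protein inside B cells, and Cd22 (-2.67) went the same way. Late B genes leaned that way too, with 5 of 13 lower in cells with Dntt (H2-Aa, H2-Ab1, H2-Eb1, Cd74 and Ccr7) and 1 higher (Cxcr5). Of all genes 3.95% were lower and 13.1% higher there. Pf4, a platelet gene, had the lowest ratio (-5.57), but 213 of its 291 UMIs lay in 1 cell.

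Some of these genes were also read within the cycle-high cells alone, 58 with Dntt and 38 without. Rag1 gave 3.00 (1.30 to 5.36), Arpp21 3.25 (2.21 to 4.50), Erg 4.26 (3.10 to 5.74) and Lef1 1.63 (1.29 to 1.98) there. Rag2 gave 2.89 (1.18 to 5.26), with 3 UMIs in the cells without Dntt. On the other side Ikzf3 gave -3.52 (-5.03 to -2.32), Nrgn -3.02, Fcrla -2.97 (-3.94 to -2.12), Myl4 -2.83 (-3.35 to -2.34) and Cd22 -2.26. Of the late B genes H2-Aa gave -2.95 and Cd74 -1.61, while H2-Ab1 at -0.87 (-1.56 to -0.20) was no longer 2-fold lower. Within cycle-low cells, with only 14 without Dntt, Rag1 gave 0.53 (-0.38 to 1.59), an interval on both sides of 0, and Arpp21 gave 2.70 (1.31 to 4.60).

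Over the 4 classes Rag1 was at 326 CPM (260 to 404) in cycle-low cells with Dntt, 226 in cycle-low cells without, 45.7 in cycle-high cells with Dntt and 5.73 CPM (1.18 to 16.7) in cycle-high cells without. The intervals of Rag1 in both cycle-low classes overlap, while those of the cycle-high classes do not. Ikzf3 had 0 UMIs in both cycle-low classes, 9.79 CPM in cycle-high cells with Dntt and 113 CPM (85.7 to 145) in cycle-high cells without. Myl4 was at 0, 41.1, 65.2 and 464 CPM in the order given for Rag1. Ighm changed less than these, from 1678 and 1357 CPM in the cycle-low classes to 1386 and 2058 CPM in the cycle-high ones.

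**Figure D4:**
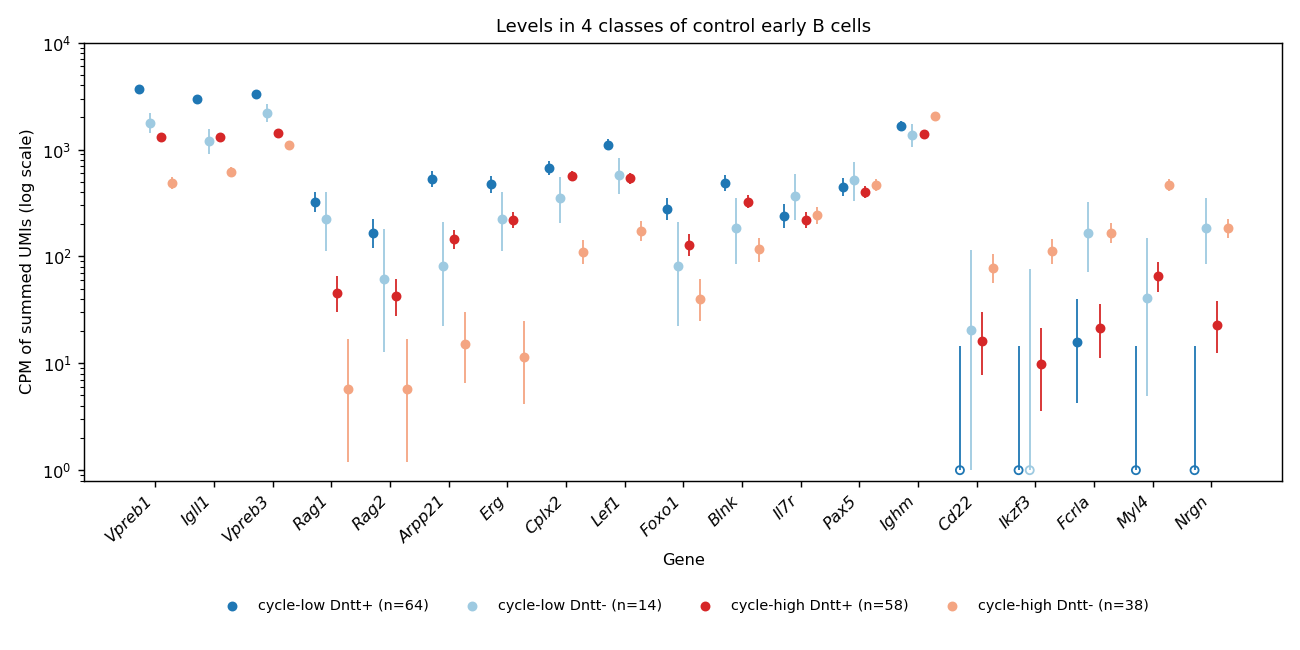
CPM of summed UMIs (y axis, log scale) of 19 genes in 4 classes of the Ctrl early B cells (64, 14, 58 and 38 cells), with exact 95% Poisson intervals; open circles at the lower edge stand for 0 UMIs. Vpreb1 and Igll1 chose the cells. Rag1, Rag2, Arpp21 and Erg are lowest and Ikzf3 and Myl4 highest in the 38 cycle-high cells without Dntt, whereas Pax5 and Il7r lie close together in the 4 classes.

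RNA of other cell types was present in the early B cells. S100a8 and S100a9, the most abundant neutrophil transcripts, were found in all 174 cells with at least 17 UMIs, at a median of 1.08% of UMIs, against 1.50% in Cd79+ cells, 0.715% in Flt3+Cd34+ cells and 25.2% in Retnlg-high cells. In 15 early B cells they exceeded 5%, up to 27.0%, and 8 cells had 10 or more haemoglobin UMIs, giving 23 cells by either mark and 151 without. These marks do not find all RNA of other cells, and 22 of the 174 cells had 10 or more UMIs of Elane and Mpo. All 12 neutrophil markers were detected, summing to 26837 CPM with S100a9 at 10593 CPM, as were all 7 monocyte markers (1226 CPM, mostly Lyz2) and all 9 erythroid markers (796 CPM). Relative to the other kept cells 0 of these were 2-fold or more higher. Of 10 T and NK cell markers 5 were at 0 (Cd3e, Cd3g, Trac, Ncr1 and Gzma), and the list summed to 34.0 CPM. Plasmacytoid dendritic markers summed to 63.2 CPM, with Siglech at 2.08 CPM and Cd209d and Klk1 at 0, against 6313 CPM in Siglech+ cells. Stem cell markers summed to 41.0 CPM, with Hlf and Procr at 0, against 850 CPM in Flt3+Cd34+ cells. Plasma cell markers summed to 153 CPM with Tnfrsf17 at 0, basophil and mast markers to 27.1 CPM with Ms4a2 at 0, and megakaryocyte markers to 228 CPM, of which Pf4 gave 202. Xist stood at 1306 CPM, and the 4 Y-linked genes looked for had 0 UMIs in these cells. Without the 23 cells the neutrophil markers 2-fold or more lower than in Cd79+ cells went from 4 to 8 of 12 and their median from -0.18 to -1.35, and 9 rather than 7 of the 14 other early B genes were 2-fold or more higher. These cells were left out of the early B side alone, for their S100a8, S100a9 or haemoglobin UMIs. The fall of the neutrophil markers is thus set in part by that choice.

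The libraries differed in how many of these cells they held. The share in Ctrl was 1.98% (1.70 to 2.29) and in cKO 0.0187% (0.000473 to 0.104), a fold of 106 (18.7 to 4202) between these 2 libraries. Since shares are of kept barcodes, a larger share of 1 class lowers others, and Retnlg-high cells were 64.7% of cKO and 31.4% of Ctrl. Their rule is a fixed count, and their median depth was 7783 UMIs in cKO and 3220 in Ctrl. The part of depth in these shares was not tested. Without barcodes of 5 or more Retnlg UMIs the early B shares were 2.62% (154 of 5888) in Ctrl and 0.0536% (1 of 1867) in cKO. Cells of neighbouring kinds had lower shares in cKO as well, with a fold of Ctrl over cKO of 5.78 (3.01 to 12.4) for Siglech+ cells and 2.26 (1.61 to 3.21) for Flt3+Cd34+ cells. The Cd79+ rule gave 580 and 95 cells, but these were unlike in depth, with a median of 2839.5 UMIs in Ctrl and 24930 in cKO, and their shares are not compared. B lineage genes that did not enter the choice were counted over all kept cells, the early B cells included. Kept cells with a Rag1 UMI numbered 149 in Ctrl, 63 of them early B cells, and 4 in cKO, a fold in share of 22.6 (8.66 to 84.2). Those with Pax5 numbered 597 and 17 (21.4, 13.2 to 36.9) and those with Vpreb3 808 and 27 (18.2, 12.4 to 27.8). Each of these genes thus marked a smaller share of the cKO library. The median depth of kept cells was 4940 UMIs in Ctrl and 8783 in cKO. Genotype, animals, enrichment and library cannot be told apart with 1 library per condition.

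**Figure D5:**
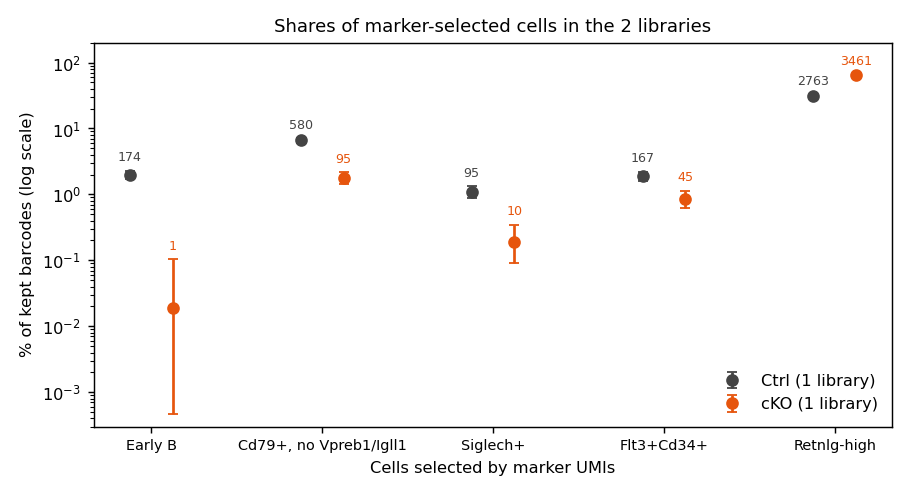
Percent of kept barcodes (y axis, log scale) in the Ctrl (grey) and cKO (orange) library for 5 classes of marker-selected cells, with exact 95% binomial intervals and the number of cells above each point. Early B cells go from 174 to 1 and Retnlg-high cells from 2763 to 3461, and the Cd79+ cells of both libraries are unlike in depth (medians of 2839.5 and 24930 UMIs).

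The cKO early B cell had 10106 UMIs and 3026 genes, with 11 UMIs of Vpreb1, 13 of Igll1 and 19 of Ebf1. It held 17 UMIs of Vpreb3, 24 of Ighm, 11 of Pax5 and 8 of Cd79a, and 1.63% of its UMIs came from cell-cycle genes. Pax5 was as high or higher in 9 of the 174 Ctrl cells, and Vpreb2, at 12 UMIs, in 2 of them. It had 1 UMI of Dntt, 2 of Il7r, 4 of Lef1 and 0 of Rag1, Rag2 and Map4k4. Of 310 listed genes found in the files it held 131, and 0 of the 310 lay outside the range of UMIs seen among the 174 Ctrl cells. With 1 cell, levels in cKO early B cells could not be compared with those in Ctrl.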

How the data were processed

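The data were 2 libraries of 3′ single-cell RNA, 1 per condition. The values are whole-number counts that the authors deposited, UMIs of 32285 genes in each called barcode without normalization, and the submitters' processing notes name Cell Ranger 5.0.0 and mm10. That tool keeps only reads assigned to 1 gene, so near-identical genes can lose UMIs. From these counts, UMIs were summed over the cells of a class and scaled to CPM with exact Poisson intervals. Shares carry Clopper-Pearson intervals, and log2 ratios an exact interval from the binomial split of both sums (95%). Genes with 10 or more UMIs in both sums together were compared, and 2-fold counted as called. With 1 library per condition no test was run.

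Members, comparison classes and the 22 gene lists were chosen with earlier results of these data known. Named genes were Map4k4, the marker genes, the lists, the 20 highest ratios against all other kept cells and the 5 highest and 5 lowest of the other Ctrl comparisons, at 100 CPM or more, except that a few are not reported here. The comparisons with Siglech+ and Flt3+Cd34+ cells are given as levels only. Gene positions are from GENCODE vM21 by identifier (32158 matched), and upstream windows from RefSeq. No doublet caller was run. A limit of 10 S100a8 and S100a9 UMIs would have removed every member and gives no value. Ratios of cKO over Ctrl were not run with 1 cKO cell. Python 3.11.15, numpy 2.4.6, scipy 1.17.1, pandas 2.3.3, matplotlib 3.10.9 and Biopython 1.88 were used, and the ratio and share intervals were tested on simulated data.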

Additional observations from a re-analysis of the deposited data

How the results depend on the processing

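No paired analysis was possible because there was 1 library per condition. The Ctrl share of early B cells stayed within its counting interval, between 1.72% and 2.16%, under other limits on UMIs, mitochondrial share and markers, without barcodes found in both libraries and without the 23 cells marked by S100a8 and S100a9 or haemoglobin. Thinning every cell to 1000 UMIs gave 1.10% in Ctrl and 0 of 5347 cells (0%, where 3 counts allow up to 0.0561%) in cKO, and leaving out barcodes with 5 or more Retnlg UMIs gave 2.62% in Ctrl. The 2-fold calls depended more on the setting. With the mean of per-cell proportions 12.9% of genes were higher in early B than in Cd79+ cells and 7.99% were lower in cells with Dntt. With at least 50 UMIs per gene 6.87% were lower than in Cd79+ cells, 11.7% lower in cycle-high cells, and 7.55% higher and 1.53% lower in cells with Dntt. Median-of-ratios scaling gave 11.5% lower in cycle-high cells, a split at 2% gave 7.24% higher there, and thinning gave 6.34% lower in cells with Dntt. Cycle-high cells were 71.3% and 44.3% of members at splits of 0.5% and 2%, and 43.7% held Dntt after thinning. The other 55 of 70 alternative values stayed within the counting interval or, for shares of genes, within 1.5 times the main value, a wide band: genes higher than in all other kept cells were 10.4% with median-of-ratios scaling and 21.1% with per-cell proportions, against 15.2%. Of 226 settings of named-gene ratios 152 moved within the counting interval, 73 past it with the same sign, and Cstdc4 reversed to 0.42 without the 23 cells. The settings that left out the 23 cells, the immunoglobulin-rich cells, the Cd79+ cells without Pax5 and Vpreb3, the Retnlg barcodes or the shared barcodes, and the per-cell and 50 UMI settings within the early B cells, were chosen after seeing the data. Depth limits low genes: by the same limit of 3 counts, a gene at 0 in the 174 cells can reach 2.08 CPM.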
